A study of Rattus norvegicus with 9 samples.

Results

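The genes of the 4 surfactant proteins, Sftpa1, Sftpb, Sftpc and Sftpd, were followed in rat lung over 4 ways of breathing. Their members were all the probe sets of the deposited values table whose annotation gives one of these 4 symbols, which came to 6 of the 8799 probe sets, for 4 of the 4736 genes that have a probe set with a single symbol. Sftpa1 was measured by M33201_at and X13176cds_s_at, Sftpb by rc_AI170380_at and rc_AI170380_g_at, Sftpc by X14221_at and Sftpd by M81231_at. All 6 passed the filter on low signal and were tested. Total RNA of lung was taken under spontaneous breathing or mechanical ventilation, at an oxygen level of 21% or of 100%, which makes 4 groups. A group had 2 samples, a and b. Under mechanical ventilation at 100% oxygen, sample b was hybridised to 2 arrays, whose log2 values were averaged. No strain, age, duration, tidal volume or further agent is stated in the sources used here. Whether a and b were different rats is not stated either, and the p-values therefore cover no more than the scatter between such samples, part of which can be technical.

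Pulmonary surfactant is the film of lipid and protein that lowers the surface tension of the alveoli. Alveolar type 2 cells make it and store it in lamellar bodies. The small hydrophobic proteins SP-B and SP-C, encoded by Sftpb and Sftpc, act on the lipid film itself. SP-A and SP-D, encoded by Sftpa1 and Sftpd, are collectins, large water-soluble lectins that bind microbes and regulate alveolar macrophages. Sftpc is the most restricted to type 2 cells, whereas Sftpa1, Sftpb and Sftpd are also transcribed in airway secretory cells.

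In the RefSeq gene table of build GRCr8, Sftpa1 lies at chr16:17042264-17045770, Sftpd on the same chromosome at chr16:17080575-17093047, Sftpb at chr4:105917495-105926631 and Sftpc at chr15:52006274-52009324. The 250 bases before the start used by the RefSeq promoter table, which held 2 of the 4 genes, are shown because these genes had lower signals together. NKX2-1 is a known activator of both, and forkhead factors are known activators of Sftpb. Both are on the plus strand, the first at chr16:17042014-17042263 and the second at chr4:105917338-105917587. Capitals mark matches to TATAAA (the TATA box), CTCAAG (the core of the NKX2-1 site) and TGTTTAC (a forkhead core), searched on both strands.
Sftpa1: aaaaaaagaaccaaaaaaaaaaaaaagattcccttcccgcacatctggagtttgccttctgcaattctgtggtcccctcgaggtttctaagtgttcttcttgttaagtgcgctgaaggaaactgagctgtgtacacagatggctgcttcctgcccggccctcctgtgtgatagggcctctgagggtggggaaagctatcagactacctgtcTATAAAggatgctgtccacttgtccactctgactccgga
Sftpb: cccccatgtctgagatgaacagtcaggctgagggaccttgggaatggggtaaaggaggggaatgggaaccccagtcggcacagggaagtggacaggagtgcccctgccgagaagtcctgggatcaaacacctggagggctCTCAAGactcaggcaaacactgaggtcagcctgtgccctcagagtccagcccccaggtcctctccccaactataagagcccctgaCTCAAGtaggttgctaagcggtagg
The Sftpa1 sequence held TATAAA from 39 to 34 bases before the start and no match to the other motifs. The Sftpb sequence held CTCAAG on the plus strand from 110 to 105 and again from 25 to 20 bases before the start, and no match to the others. Over 33469 rat promoters of the same length, 12.9% held TATAAA, 13.3% CTCAAG and 3.21% TGTTTAC on either strand. These matches are a description of the letters. The start in the gene table for Sftpb lies inside the stretch printed, so the tables place its start differently.

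The deposited intensities had 2% trimmed means close to 801 on all 9 arrays, yet the bright end differed. Mechanical ventilation with 100% oxygen had 99th percentiles of 7111 to 8352 over its 3 arrays, as compared with 9934 to 14547 over the other 6. A line for a lot batch, with no lot given, stands in the description of 4 arrays. These are both arrays of spontaneous breathing with 21% oxygen, that of letter a of mechanical ventilation with 100% oxygen, and the second array of its letter b. Both groups with a single change, spontaneous breathing with 100% and mechanical ventilation with 21% oxygen, lack the line. Their comparisons with spontaneous breathing at 21% oxygen therefore coincide with it. RNA of whole lung was measured, so fewer cells of a type and less RNA per cell cannot be told apart.

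Sftpb had the widest range of the 4 genes at 1 of its 2 probe sets, rc_AI170380_at. At rc_AI170380_at the intensities were 23281 and 18873 in spontaneous breathing with 21% oxygen, 15104 and 16391 in mechanical ventilation with 21% oxygen, and 11558 and 17928 in spontaneous breathing with 100% oxygen. In mechanical ventilation with 100% oxygen letter a gave 4591 and the 2 arrays of letter b gave 8219.9 and 5632. These 3 arrays lay below all the others. At rc_AI170380_g_at the same order was seen in a narrower range, which was also narrower than that of Sftpc. Its group means were 12919.7 ± 1504 (SD, n = 2), 10073 ± 508, 9589 ± 1130.5 and 6448 ± 200.1 in the order spontaneous 21%, mechanical 21%, spontaneous 100% and mechanical 100%.

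Sftpc, the marker of type 2 cells, behaved like Sftpb. The intensities of X14221_at were 14817 and 10627 with spontaneous breathing and 21% oxygen, 7784 and 9252 with mechanical ventilation and 21% oxygen, and 6019.6 and 9660.2 with spontaneous breathing and 100% oxygen. With mechanical ventilation and 100% oxygen they were 3543 for letter a, and 4942 and 3581 for the arrays of letter b. No array of that group reached the lowest array of another. The means were 12722 ± 2963 (SD, n = 2), 8518 ± 1038, 7839.9 ± 2574 and 3875 ± 469.7 in the same order of groups.

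Sftpa1 moved less. M33201_at gave 17694 and 13789 in spontaneous breathing with 21% oxygen, 12773 and 13131 in mechanical ventilation with 21% oxygen, and 11178 and 12464.5 in spontaneous breathing with 100% oxygen. Mechanical ventilation with 100% oxygen gave 10230.2 for letter a, and 10912 and 9577 for letter b. The second probe set, X13176cds_s_at, had group means of 15595 ± 1894 (SD, n = 2), 13071 ± 755, 10946 ± 353 and 8822 ± 416 in the same order. Both Sftpa1 probe sets were lowest in the group in which both conditions changed, without overlap with another group. The share of all probe sets separated in this way was not counted, here or for Sftpb and Sftpc. Against spontaneous breathing with 21% oxygen, 163 of 248 other probe sets at least as bright as Sftpc fell more than M33201_at. For X13176cds_s_at the number was 112.

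Sftpd varied least. M81231_at gave 9646 and 11072, 8845 and 9890.3, and 9311 and 11037 in spontaneous breathing with 21%, mechanical ventilation with 21% and spontaneous breathing with 100% oxygen. The arrays of mechanical ventilation with 100% oxygen gave 8879.7 for letter a, and 9258 and 7609.9 for letter b. All 4 groups overlapped with their neighbours in level. Its means ran from 10359 ± 1008 (SD, n = 2) with spontaneous breathing and 21% oxygen to 8637 ± 343 with mechanical ventilation and 100% oxygen.

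**Figure D1:**
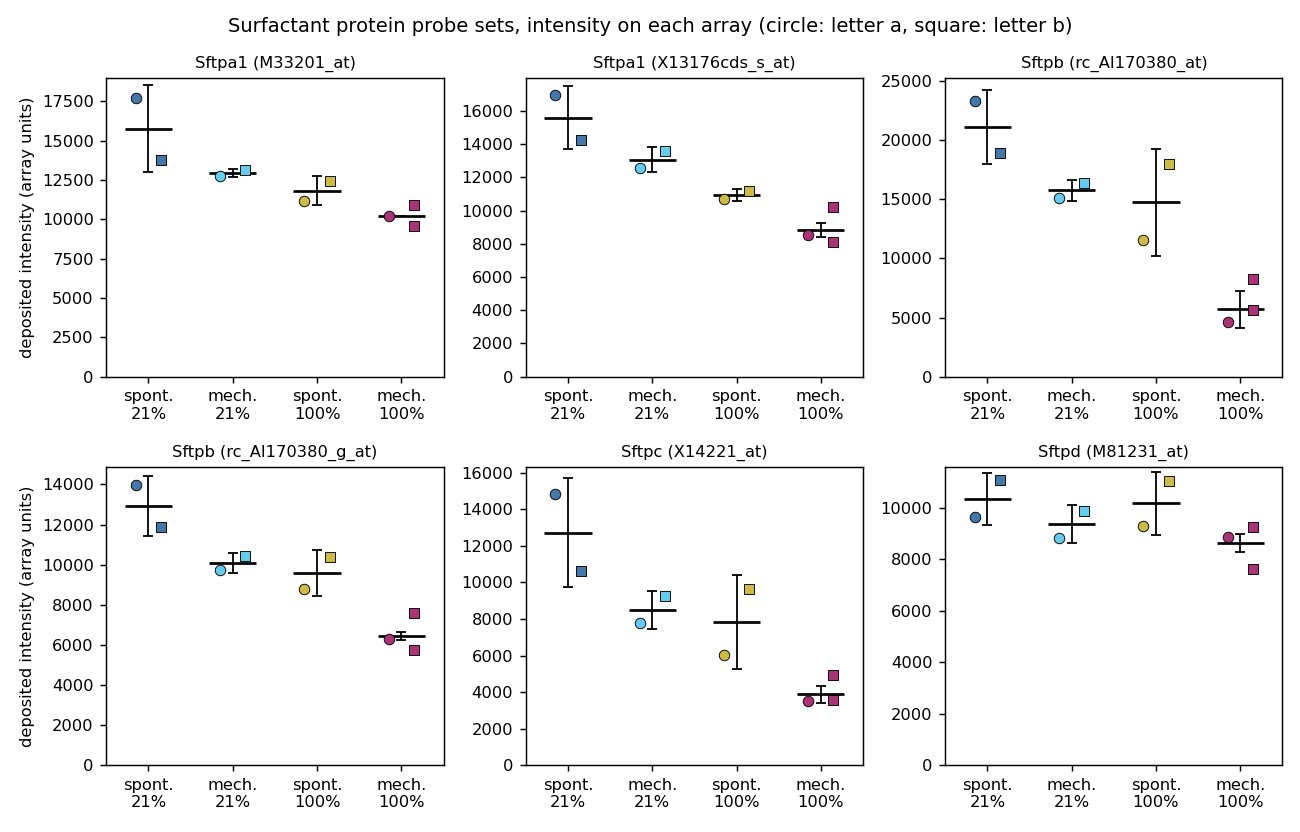
Deposited intensity (array units, axes from 0) of the 6 probe sets on each of the 9 arrays, with circles for letter a and squares for letter b; the bar is the group mean and the whiskers 1 SD over 2 samples, the 2 arrays of letter b in mechanical 100% being averaged first. Sftpb, Sftpc and Sftpa1 are lowest in mechanical 100%, whereas the Sftpd groups overlap between 7609.9 and 11072.

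The groups had the same order for Sftpa1, Sftpb and Sftpc. Spontaneous breathing with 21% oxygen was highest, followed by mechanical ventilation with 21%, spontaneous breathing with 100% and mechanical ventilation with 100% oxygen. For both Sftpb probe sets and Sftpc, the samples of mechanical ventilation with 21% and of spontaneous breathing with 100% oxygen overlapped, so the order of these neighbours is not larger than the spread. For Sftpa1 they did not overlap. Over the 8 samples the log2 values of Sftpa1, Sftpb and Sftpc had Pearson correlations of 0.86 to 0.99 with each other, whereas Sftpd had correlations of 0.48 to 0.68 with them. These are descriptions over samples that share the array scaling.

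The comparison of both conditions changed with neither changed, mechanical ventilation with 100% against spontaneous breathing with 21% oxygen, gave the greatest differences. Sftpb fell by 1.90 ± 0.25 on the log2 scale (SE) at rc_AI170380_at, which is 3.73 times lower (limma, Benjamini-Hochberg adjusted p = 0.0029). At rc_AI170380_g_at it fell by 0.99 ± 0.13 (adjusted p = 0.0033), and Sftpc fell by 1.69 ± 0.24, or 3.23 times (adjusted p = 0.0041). Sftpa1 fell by 0.61 ± 0.14 at M33201_at and by 0.81 ± 0.13 at X13176cds_s_at (adjusted p = 0.025 and 0.0048). Sftpd had a change of -0.26 ± 0.13 and did not pass (adjusted p = 0.25). A call here is an adjusted p under 0.05 over the 5244 tested probe sets, on log2(intensity + 40). Thus 5 of the 6 probe sets were called lower, against 7.02% of all tested probe sets called lower and 7.49% called higher. All 6 are bright, and of the 431 brightest probe sets without the members 51.5% were called lower. On the arrays with the lot line alone, the changes were -2.03 and -1.09 for Sftpb, -1.81 for Sftpc, -0.66 and -0.90 for Sftpa1 and -0.33 for Sftpd, and the same 5 were called. Without letter a of mechanical ventilation with 100% oxygen 3 were called. A fit that leaves a group of 1 sample takes its spread from the other groups. The exact two-sided permutation test of 2 samples against 2 cannot go below p = 0.333, so single values were tested only within the fit over all probe sets.

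Oxygen was compared within mechanical ventilation next. With 100% against 21% oxygen Sftpb fell by 1.49 ± 0.25 at rc_AI170380_at (2.80 times lower, adjusted p = 0.0036) and by 0.64 ± 0.13 at rc_AI170380_g_at (adjusted p = 0.0085). Sftpc fell by 1.13 ± 0.24 (2.19 times, adjusted p = 0.0097). Of the Sftpa1 probe sets, X13176cds_s_at fell by 0.56 ± 0.13 (adjusted p = 0.010) and M33201_at had -0.34 ± 0.14 (adjusted p = 0.096). Sftpd had -0.12 ± 0.13 (adjusted p = 0.54). These are 4 of 6 called lower, beside 14.4% of all probe sets lower and 20.7% higher. Of the 431 brightest without the members, 57.8% were called lower. Leaving out letter a of mechanical ventilation with 100% or letter b of mechanical ventilation with 21% oxygen left 1 call each. On the arrays without the lot line, which hold 1 sample of the 100% group, the changes were -0.93 and -0.41 for Sftpb, -0.78 for Sftpc, -0.25 and -0.35 for Sftpa1 and -0.01 for Sftpd, and none passed (lowest adjusted p = 0.071). With the lot line as a block 1 probe set was called.

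Ventilation was compared within 100% oxygen. Mechanical ventilation had lower Sftpb than spontaneous breathing, by -1.36 ± 0.25 (2.56 times, adjusted p = 0.0081) and -0.56 ± 0.13 (adjusted p = 0.019) at its 2 probe sets, and lower Sftpc, by -0.97 ± 0.24 (1.97 times, adjusted p = 0.023). Sftpa1 had -0.21 ± 0.14 and -0.31 ± 0.13 (adjusted p = 0.32 and 0.10), and Sftpd -0.23 ± 0.13 (adjusted p = 0.24). So 3 of 6 were called lower, beside 10.4% lower and 16.6% higher over all probe sets. Of the 431 brightest without the members, 59.4% were called lower. The count was 0 without letter a of mechanical ventilation with 100% oxygen, and 1 without its letter b or without letter b of spontaneous breathing with 100% oxygen. Within the arrays without the lot line the changes were -0.81 and -0.33 for Sftpb, -0.62 for Sftpc, -0.11 and -0.10 for Sftpa1 and -0.13 for Sftpd, and none passed (lowest adjusted p = 0.13).

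Neither condition alone gave many calls. Mechanical ventilation with 21% oxygen, against spontaneous breathing with 21%, had 0 of 6 called by limma, with 2 of 6 at an unadjusted p under 0.05. Sftpb had -0.41 ± 0.25 and -0.35 ± 0.13 (adjusted p = 0.30 and 0.12), Sftpc -0.56 ± 0.24 (adjusted p = 0.17), Sftpa1 -0.27 ± 0.14 and -0.25 ± 0.13, and Sftpd -0.14 ± 0.13. Over all probe sets 7.49% were called lower and 7% higher. Spontaneous breathing with 100% against 21% oxygen had 1 of 6 called by limma, with 4 of 6 at an unadjusted p under 0.05. The call was X13176cds_s_at of Sftpa1 (-0.50 ± 0.13, adjusted p = 0.031), beside 9.71% lower and 7.06% higher over all probe sets. Sftpc had -0.72 ± 0.24 (adjusted p = 0.081), Sftpb -0.54 ± 0.25 and -0.43 ± 0.13 (adjusted p = 0.17 and 0.063), M33201_at of Sftpa1 -0.40 ± 0.14 (adjusted p = 0.086) and Sftpd -0.03 ± 0.13 (adjusted p = 0.91). That 1 call was lost when any 1 of 6 samples was left out, both of mechanical ventilation with 21%, both of mechanical ventilation with 100%, letter a of spontaneous breathing with 21% and letter a of spontaneous breathing with 100% oxygen. Without letter b of spontaneous breathing with 21% oxygen there were 2. Few calls do not mean that these genes moved like other bright ones. Of the 248 other probe sets at least as bright as Sftpc, 13 fell more than Sftpc with ventilation and 9 with oxygen. For Sftpb these numbers were 38 and 25 at rc_AI170380_at, and 57 and 52 at rc_AI170380_g_at. They were 84 and 56 at M33201_at, 91 and 33 at X13176cds_s_at, and 131 and 179 for Sftpd. Condition and lot line coincide in both comparisons. With the lot line as a block, which rests on the 2 arrays of a single sample, the changes at rc_AI170380_at and X14221_at were -1.10 and -1.03 for ventilation and -1.23 and -1.18 for oxygen, and none of the 6 passed in either (lowest adjusted p = 0.15 and 0.070).

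The interaction, the change with ventilation at 100% oxygen minus that at 21%, was called for 0 of the 6 probe sets by limma, with 1 of 6 at an unadjusted p under 0.05, where 27.4% of all tested probe sets were called in either direction. It was -0.95 ± 0.35 for rc_AI170380_at (adjusted p = 0.079), -0.21 ± 0.19 for rc_AI170380_g_at, -0.41 ± 0.35 for Sftpc and between -0.09 and 0.06 for Sftpa1 and Sftpd. The 431 brightest probe sets without the members had a median interaction of -0.40, with 87 called negative and 14 positive. Sftpc thus lay near that median, and rc_AI170380_g_at of Sftpb, Sftpa1 and Sftpd above it. Without letter b of mechanical ventilation with 100% oxygen, or without letter a of spontaneous breathing with 100% oxygen, rc_AI170380_at passed (-1.23 and -1.26, adjusted p = 0.045 and 0.029). That the lower Sftpb of the combined condition exceeds the sum of both single changes therefore did not pass with all samples.

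All 6 probe sets lie at the bright end of the arrays, where signals in mechanical ventilation with 100% oxygen were lower in general. Of the 431 brightest probe sets, 5% of all and without the members, 222 were called lower and 4 higher against spontaneous breathing with 21% oxygen, with a median change of -0.52. Against mechanical ventilation with 21% oxygen 249 were lower and 15 higher (median -0.51), and against spontaneous breathing with 100% oxygen 256 were lower and 12 higher (median -0.52). Over all tested probe sets the medians were 0.10, 0.14 and 0.13. For mechanical ventilation with 21% and for spontaneous breathing with 100% oxygen, each against spontaneous breathing with 21%, the bright medians were -0.13 and -0.15.

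Against this bright background the 4 genes parted. There were 248 other probe sets at least as bright as Sftpc, the dimmest of the 6, with a median of -0.65 for 100% against 21% oxygen in mechanical ventilation. Only 7 of them had a larger fall than Sftpb at rc_AI170380_at and 15 a larger one than Sftpc. For rc_AI170380_g_at the number was 127, for the Sftpa1 probe sets 149 and 206, and for Sftpd 228. In other words Sftpb (at 1 of its probe sets) and Sftpc lay below most probe sets at least as bright as Sftpc, and Sftpd above most. The rank on the array was counted from the brightest of 8740. X14221_at of Sftpc ranked 76 to 167 in spontaneous 21% and 206 to 261 in mechanical 21%. It ranked 221 to 367 in spontaneous 100% and 486 to 713 in mechanical 100%. In the same order rc_AI170380_at ranked 2 to 3, 7 to 9, 10 to 23 and 102 to 501. Outside mechanical 100% it was thus brighter than most of the 248, and probe sets of its own brightness were not counted separately. The ranks of rc_AI170380_g_at were 149 to 161 in mechanical 21% and 156 to 282 in mechanical 100%. Those of Sftpd were 172 to 204 and 16 to 54 in these groups, and those of M33201_at 35 to 40 and 4 to 7.

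**Figure D2:**
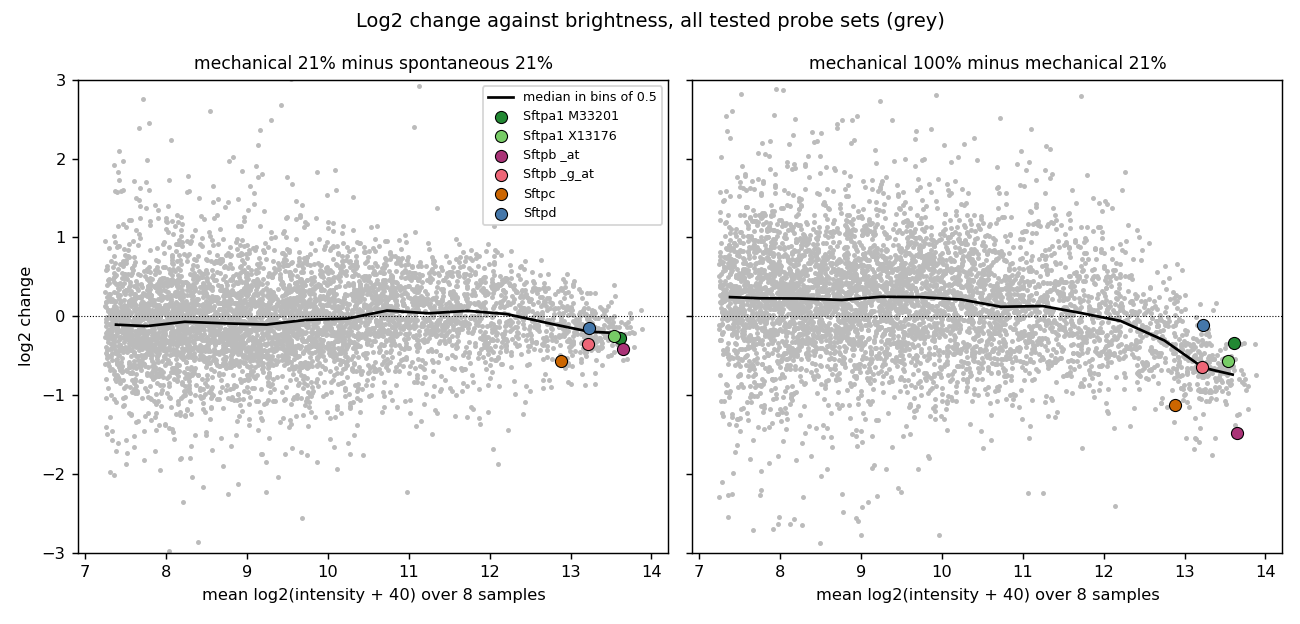
Log2 change of every tested probe set (grey) against its mean log2(intensity + 40) over 8 samples, for mechanical 21% minus spontaneous 21% (left) and mechanical 100% minus mechanical 21% (right), with the 6 surfactant probe sets in colour and the median in bins of 0.5 as a line; 22 and 35 points beyond 3 are not drawn. On the right the line drops at the bright end, with Sftpc and rc_AI170380_at of Sftpb below it and Sftpd above it.

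The sign of the change turned with the scaling between arrays for Sftpa1 and Sftpd, but in the 3 comparisons with mechanical ventilation at 100% oxygen not for Sftpb and Sftpc. The interaction at rc_AI170380_g_at did turn, from -0.21 to 0.038 after quantile normalization, 0.13 after loess and 0.19 after bright end centring. After quantile normalization, which gives all arrays the same bright end, the 100% against 21% oxygen comparison in mechanical ventilation had 2 probe sets lower and 2 higher, in place of 4 lower and 0 higher. Sftpb at rc_AI170380_at (-1.14 ± 0.21, adjusted p = 0.0062) and Sftpc (-1.04 ± 0.16, adjusted p = 0.0032) still fell, whereas Sftpd rose by 0.51 ± 0.10 (adjusted p = 0.0069) and M33201_at of Sftpa1 by 0.32 ± 0.09 (adjusted p = 0.032). Against spontaneous breathing with 100% oxygen the split was also 2 lower and 2 higher, with -1.05 and -0.86 for the same Sftpb and Sftpc probe sets, 0.38 for Sftpd and 0.42 for M33201_at. Against spontaneous breathing with 21% oxygen it was 3 lower and 1 higher, with Sftpb at -1.29 and -0.28, Sftpc at -1.36 and Sftpd at 0.46 (adjusted p = 0.023). Cyclic loess gave 0.26 for Sftpd and 0.12 for M33201_at in the first of these comparisons, neither called (adjusted p = 0.11 and 0.45). Centring on the bright end gave 0.35 (adjusted p = 0.024) and 0.13 (adjusted p = 0.35), and raised the median of all probe sets from 0.14 to 0.60. Of all calls in this comparison 41.1% were lower as deposited, 51.4% after quantile normalization, 51.6% after loess and 9.09% after bright end centring. Against spontaneous 100% the lower share went from 38.6% to 46.4%, 46.3% and 5.65%, and against spontaneous 21% from 48.4% to 52.1%, 53.3% and 6.65%. For the interaction it was 38.3%, 48.8%, 51% and 12.5%, and for oxygen in spontaneous breathing 57.9%, 56.2%, 51.8% and 45.9%. The probe set rc_AI170380_g_at kept its negative sign in all 20 alternatives of each of the 3 comparisons with this group. It was called in 13, 10 and 20 of them, against mechanical 21%, spontaneous 100% and spontaneous 21% in that order. In the same alternatives rc_AI170380_at was called in 19, 16 and 20 and Sftpc in 15, 12 and 19, always lower.

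**Figure D3:**
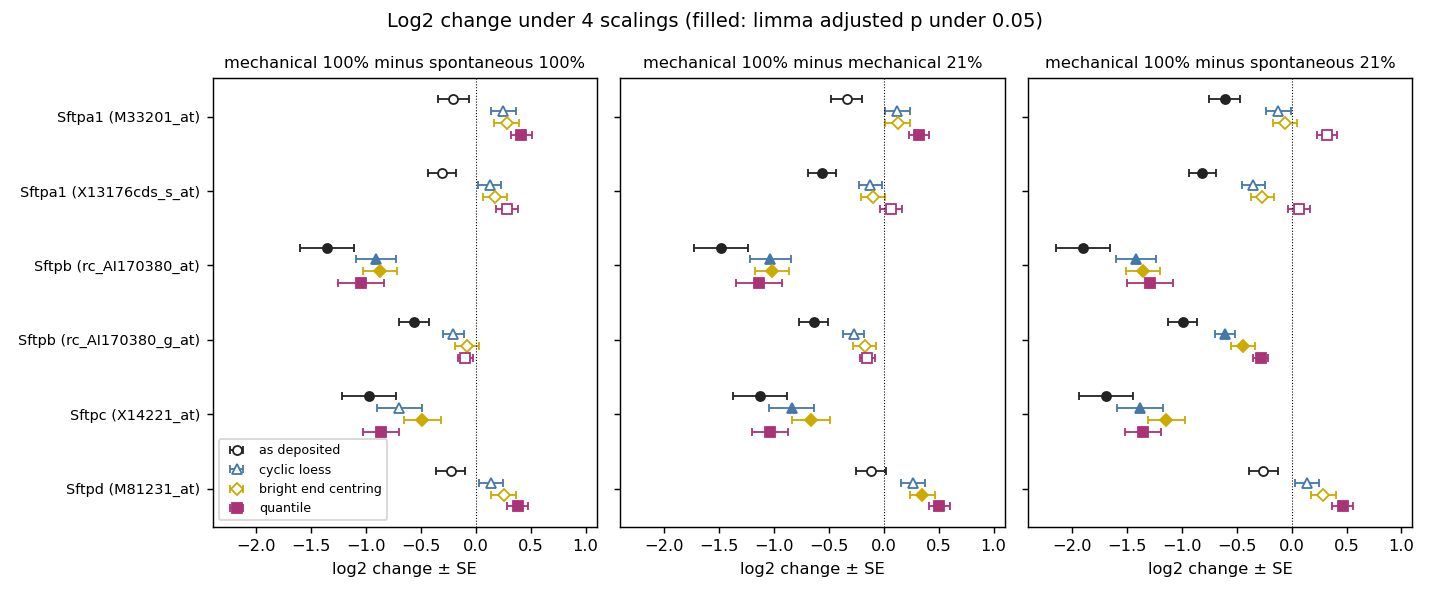
Log2 change ± SE of the 6 probe sets in mechanical 100% minus spontaneous 100%, mechanical 21% and spontaneous 21%, with the values as deposited and after cyclic loess, bright end centring and quantile normalization; filled symbols have an adjusted p under 0.05. Sftpc and rc_AI170380_at of Sftpb stay left of 0 in all 3 panels, and Sftpd lies right of 0 under the 3 alternative scalings.

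A ratio of probe sets within an array does not depend on the scale factor, and was added as a check after the values were seen. Relative to Sftpd and to the mean of spontaneous breathing with 21% oxygen, log2 Sftpc was -1.59 and -1.27 in the letters a and b of mechanical ventilation with 100% oxygen. It was -0.91 and -0.47 in spontaneous breathing with 100%, -0.46 and -0.37 in mechanical ventilation with 21%, and 0.34 and -0.34 in spontaneous breathing with 21% oxygen. The combined group was thus lowest with no overlap. The same held for Sftpb over Sftpd at rc_AI170380_at, with a group mean of -1.64 ± 0.46 (SD, n = 2) against -0.51 ± 0.27 in spontaneous 100% and -0.27 ± 0.03 in mechanical 21%. At rc_AI170380_g_at it was -0.74 ± 0.10 against -0.40 and -0.21. How many other probe sets separate from the other groups in this way, relative to Sftpd, was not counted. Sftpa1 over Sftpd was -0.35 ± 0.06 at M33201_at and -0.56 ± 0.12 at X13176cds_s_at. Both lay below the samples of spontaneous breathing with 21% oxygen (SD 0.39 and 0.32) and overlapped with those of spontaneous breathing with 100% oxygen (-0.38 ± 0.06 and -0.48 ± 0.13). Sftpc over Sftpa1 (M33201_at) was -1.08 ± 0.17 in mechanical 100% and -0.31 and -0.29 in spontaneous 100% and mechanical 21%. The ratios to Sftpd were thus lowest for Sftpc and rc_AI170380_at, while rc_AI170380_g_at of Sftpb (-0.74) lay near X13176cds_s_at of Sftpa1 (-0.56). A ratio shows unequal change without saying which probe set stayed level. It also does not remove a drop that depends on brightness. In mechanical 100% against spontaneous 21%, the 248 other probe sets at least as bright as Sftpc had a median change of -0.77. Sftpd lay 0.51 above that median, so a probe set at the median would lie 0.51 below Sftpd.

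**Figure D4:**
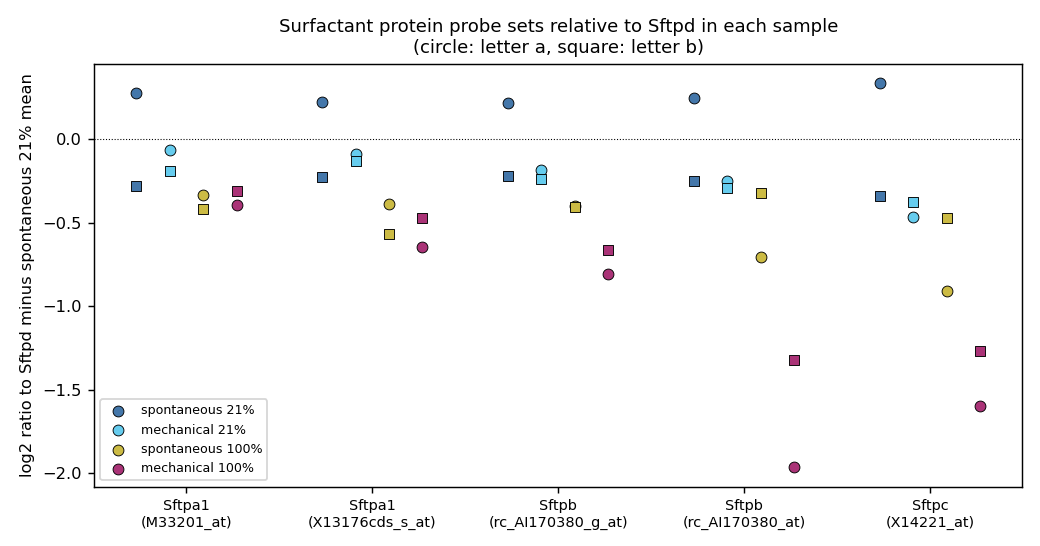
Log2 ratio of each surfactant probe set to M81231_at of Sftpd in the 8 samples, minus the mean ratio in spontaneous 21%; circles are letter a and squares letter b, coloured by group. For Sftpc and both Sftpb probe sets the mechanical 100% samples are lowest, from -0.66 to -1.96, and for Sftpa1 they lie beside the spontaneous 100% samples. In mechanical 100% against spontaneous 21%, Sftpd itself lay 0.51 above the median of 248 other probe sets at least as bright as Sftpc.

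The 2 Sftpb probe sets gave different sizes. In mechanical ventilation with 100% oxygen, rc_AI170380_at was lower than rc_AI170380_g_at by a further -0.79, -0.85 and -0.91 against spontaneous 100%, mechanical 21% and spontaneous 21%. In the comparisons without this group the difference was -0.06 and -0.11. The 2 Sftpa1 probe sets differed by at most 0.23 in the 5 simple comparisons. The repeated array also bears on size. For letter b of mechanical ventilation with 100% oxygen, the first array gave 1.46 times the second at rc_AI170380_at and 1.38 times at X14221_at, as compared with 1.14 at M33201_at, 1.26 at X13176cds_s_at, 1.32 at rc_AI170380_g_at and 1.22 at M81231_at. The first array lacks the lot line and the second has it.

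The genes whose pattern over the 8 samples was most like each member were chosen among 3177 tested genes by Pearson correlation with its brightest probe set, as a description. For Sftpb these were Itm2b (0.996), the ribosomal protein gene Rps16 (0.995) and the chaperone gene Hsp90ab1 (0.995). For Sftpc they were the haemoglobin gene Hbb-b1 (0.998), the ribosomal protein gene Rpl27a (0.996) and Tmsb4x (0.996), which encodes an actin-binding peptide. The globin genes are near-identical copies, so which of them these probe sets read is uncertain. For Sftpa1 they were the club cell secretory protein gene Scgb1a1 (0.96), the defensin gene Defb4 (0.96) and Hbb-b1 (0.95), and for Sftpd the mitochondrial carrier gene Ucp2 (0.94), Crmp1 (0.85) and the globin gene Hba-a3 (0.84). Most of them are bright and lower in mechanical ventilation with 100% oxygen. Rps16 had 16505 ± 1579 (SD, n = 2) in spontaneous 21% and 7438 ± 945 in mechanical 100%, and Hsp90ab1 had 18689 ± 2231 and 6753 ± 905. They share the array scaling with the members.

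Of 20 further genes listed for alveolar type 2 cells, 9 were on the array and all 9 were tested. For 100% against 21% oxygen in mechanical ventilation, where 20.7% of all tested probe sets were called higher and 14.4% lower, 3 of the 9 rose and 2 fell, with a median of 0.02 where that of all probe sets was 0.14. The lysozyme gene Lyz2, made by type 2 cells and macrophages, fell by 1.16 ± 0.21 (adjusted p = 0.0047), from 8351 ± 650.1 to 3718 ± 45.5. It was also called lower after quantile normalization (-1.09), cyclic loess (-0.89) and bright end centring (-0.69). Scd, a fatty acid desaturase gene, fell by 2.25 ± 0.11 from 6608 ± 52.5, a level reached only in mechanical ventilation with 21% oxygen. Muc1, an epithelial mucin gene, rose by 0.73 ± 0.14 and the tight junction gene Cldn3 by 0.37 ± 0.12. Under quantile and loess scaling Cldn3 kept its sign without passing. Against spontaneous breathing with 100% oxygen 4 of the 9 rose and 3 fell, beside 16.6% and 10.4% over all probe sets. The list's counts became 5 and 2 after quantile normalization, 4 and 2 after loess and 6 and 1 after bright end centring. Among those called as deposited was Cd74, the invariant chain gene of MHC class II, whose fall of 0.57 ± 0.13 turned to 0.01 after quantile normalization. Against spontaneous breathing with 21% oxygen 0 rose and 3 fell (median -0.25), beside 7.49% higher and 7.02% lower over all probe sets. These were Lyz2 (-1.57), Cd74 (-0.75) and the phosphatase gene Alpl (-0.44). The counts became 0 and 1 after quantile normalization, 0 and 2 after loess and 3 and 1 after bright end centring, and Lyz2 was called lower under each of them.

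Genes of factors known to regulate surfactant protein transcription had mostly higher signals in the combined group than in mechanical ventilation with 21% oxygen. Of 38 listed, 30 were on the array and 21 were tested. For 100% against 21% oxygen in mechanical ventilation 12 of the 21 rose and 1 fell (median 0.94), beside 20.7% higher and 14.4% lower over all probe sets. Nkx2-1, the lung lineage factor that activates surfactant protein genes, had 3149 ± 338 (SD, n = 2) in spontaneous 21%, 2277 ± 256 in spontaneous 100%, 1541 ± 93.7 in mechanical 21% and 3472 ± 284 in mechanical 100%. It fell by 1.01 ± 0.14 with ventilation at 21% oxygen (adjusted p = 0.0041) and rose by 1.15 ± 0.14 with oxygen in mechanical ventilation (adjusted p = 0.0010). Its interaction was 1.61 ± 0.20 (adjusted p = 0.0012). The nuclear factor I gene Nfib rose by 1.54 ± 0.15, the signal transducer gene Stat3 by 1.83 ± 0.21, and Cebpb, a C/EBP factor gene, by 0.96 ± 0.12. The rises of Nkx2-1, Nfib, Stat3 and Cebpb were also called under quantile, loess and bright end scaling. The 1 gene that fell, named after its value was seen, was Hsd11b1, whose enzyme makes active glucocorticoid (-0.36 ± 0.11). Its change was -0.03 after quantile normalization and turned to 0.10 after bright end centring.

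The other comparisons gave the regulator list the following counts. With ventilation at 21% oxygen 5 fell and 0 rose (median -0.37), beside 7.49% lower over all probe sets, or 3 and 0 after bright end centring. With oxygen in spontaneous breathing Usf2 and Nfia fell and 0 rose (median -0.17), beside 9.71% lower. With ventilation at 100% oxygen 10 rose and 2 fell (median 0.66), beside 16.6% and 10.4%. These counts became 7 and 1 after quantile normalization, 7 and 0 after loess and 16 and 0 after bright end centring. With both changes 3 rose, Cebpb, Stat3 and the forkhead gene Foxa2, and Hsd11b1 fell (median 0.39), beside 7.49% and 7.02%. The interaction was called positive for 12 and negative for 0, beside 16.9% positive over all probe sets. In the combined group, therefore, signals of Nkx2-1 and Cebpb were higher than in mechanical ventilation with 21% oxygen while those of Sftpb and Sftpc were lower. The Nkx2-1 levels in the combined group and in spontaneous breathing with 21% oxygen differed by 0.14 ± 0.14 (adjusted p = 0.54), or 0.69 (adjusted p = 0.018) after bright end centring.

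Genes of surfactant processing and secretion gave mixed counts. Of 35 listed, 24 were tested, and with 100% against 21% oxygen in mechanical ventilation 4 rose and 2 fell, near the shares of 20.7% and 14.4% over all probe sets (3 and 2 after quantile normalization, 3 and 1 after loess, 12 and 0 after bright end centring). The protein disulfide isomerase gene Pdia4 rose by 1.42 ± 0.13 and the vesicle fusion gene Vamp2 by 0.51 ± 0.13. Anxa1 and Anxa2, which encode membrane-binding annexins, fell by 0.65 ± 0.13 and 0.49 ± 0.13, though Anxa2 turned to 0.08 after quantile normalization. The protease gene Ctsh, whose product cleaves the SP-B and SP-C precursors, had 7385 ± 143 and 6034 ± 19.9 in these groups and was not called. Of 39 listed genes of surfactant lipid metabolism 26 were tested, with 7 higher and 3 lower beside the same shares (4 and 3, 4 and 4, and 15 and 1 under the other scalings). Scd and Dgat1, an enzyme gene of triglyceride synthesis, fell by 2.25 ± 0.11 and 0.91 ± 0.16, and Acsl3, which activates fatty acids, rose by 0.75 ± 0.14. Against spontaneous breathing with 100% oxygen the fatty acid synthase gene Fasn rose by 1.07 ± 0.16 and the lipoprotein lipase gene Lpl by 0.62 ± 0.10, among 5 higher and 2 lower. The other collectin genes on the array, Mbl1 and Mbl2, were too dim to be tested. Of the 6 tested genes for collectin receptors and related proteins 0 were called in mechanical ventilation with 100% against 21% oxygen by limma, with 1, the chaperone gene Calr, at an unadjusted p under 0.05. Against spontaneous 100% only Cd14, the lipopolysaccharide receptor gene, was called, with a rise of 0.59 ± 0.14.

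Markers of other cells and tissues moved with the groups, and their part in the surfactant results was not tested. The summed intensity over a sample of 14 T cell genes was 34169 to 36035 in mechanical ventilation with 21% oxygen and 3881 to 5051 in the other groups. That of 15 skeletal muscle genes was 28809 to 29864.5 in spontaneous breathing with 100%, 9175 to 9272 in mechanical ventilation with 21%, 6475 to 6682 in spontaneous breathing with 21% and 3384 to 3402 in mechanical ventilation with 100% oxygen, where Tnni2, Myh2 and Eno3 were listed at 0. The 14 heart muscle genes had 24852 to 27048 in spontaneous 100% and 12067 to 16135 elsewhere, and 9 fat genes 20529 to 21809 in mechanical 21% and 8060.4 to 11822 elsewhere, with Plin1 listed at 0 in all groups. The groups with a high sum of T cell, fat or muscle genes are thus those with a single condition changed.

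The sums of lung and blood cell markers also differed between groups. A sum rests mostly on its brightest genes, and bright signals were lower in general in mechanical 100%. How far this shaped the sums was not tested. Gene by gene, the 9 type 2 cell genes had median log2 changes in mechanical 100% of 0.02 against mechanical 21% and -0.05 against spontaneous 100%. Against spontaneous 21% the median was -0.25. For 9 type 2 cell genes the sum was 54222 to 58281 in spontaneous 21%, 46891 to 47184 in mechanical 21%, 41456 to 43413 in spontaneous 100% and 37666 to 39931 in mechanical 100%. Without Scd, a check added after the values were seen, mechanical 21% (40245.7 to 40613) and spontaneous 100% (39719 to 41608) overlapped, between 52951 to 57116 in spontaneous 21% and 36331 to 38546 in mechanical 100%. For 7 type 1 cell genes it was 27423 to 30488, 22777 to 23708, 23116 to 24859.9 and 19778.5 to 20928 in the same order. With 100% against 21% oxygen in mechanical ventilation, 6 of these were tested, with a median change of 0.05. The receptor gene Ager fell by 0.92 ± 0.15 and Vegfa rose by 1.06 ± 0.15. These were 1 called lower and 1 higher, beside 14.4% and 20.7% over all probe sets. The 5 blood genes had 22653 to 26189.6, 15651 to 20296, 18959 to 24568.5 and 10136 to 11972. The 9 airway genes had 18383 to 19292, 15508 to 16469, 16722.5 to 17049.8 and 16456 to 16979.5. Scgb1a1, their brightest, had 10278 ± 720 in spontaneous 21% and 6789 ± 59.7 in mechanical 100%. It did not stand for the list, of which 7 genes were tested. In mechanical 100% against spontaneous 21%, Scgb1a1 was called lower and Tff3 higher, with a median change of 0.19. Against mechanical 21%, 3 were called higher and 1, Scgb1a1, lower (median 0.35). The 11 endothelial genes had 17586 to 18695, 11246 to 12017, 9528 to 9543 and 14991 to 16484. The 10 fibroblast genes had 73874 to 74374, 46439.9 to 48625, 54277 to 62768 and 59036 to 59361. The 7 macrophage genes had 14615 to 15336, 18141 to 18881, 11718 to 12890.5 and 13674 to 13947, and the 7 neutrophil genes 18624 to 20272, 23582 to 23809, 19831 to 21682 and 15767 to 15811. Of 6 tested macrophage genes, 1 was called higher and 0 lower in mechanical 21% against spontaneous 21% (median 0.17). Over all probe sets 7% were called higher there. The 1 gene was Fabp4 (2.68 ± 0.22), which is also in the fat list. Of the defining lung markers, Ager of type 1 cells had group means of 5517 to 13680.0, Scgb1a1 of airway secretory cells 6789 to 10278 and Nkx2-1 of lung epithelium 1541 to 3472, so all were detected in the 4 groups.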

How the data were processed

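Total RNA of rat lung was measured on 9 one-colour expression arrays of 8 samples. The authors deposited 1 linear intensity per probe set and array, of which 18.4% to 20.01% were at or below 0; the software and build are not given in the sources used here. The arrays' 2% trimmed means were 800.5 to 801.1, so they appear scaled to a common level, and no count depth applies: the number of arrays limits the precision. Symbols came from the platform annotation given for this work, where 7006 probe sets carry a single symbol.

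Values were turned into log2(max(intensity, 0) + 40), and the 2 arrays of 1 sample were averaged. After removal of 59 control probe sets, 8740 remained. The lowest 40% by mean were not tested, leaving 5244. One limma 3.58.1 model in R 4.3.3 (4 groups, eBayes with trend, 4 residual degrees of freedom) gave all comparisons, with Benjamini-Hochberg adjustment and a threshold of 0.05. The code was tested on simulated data. Figures were drawn with Python 3.11.15 and matplotlib 3.10.9.

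Alternatives were quantile and cyclic loess normalization, centring on the brightest 5%, offsets of 8 and 80, no filter, 1 of the repeated arrays, letter or lot line as a block, subsets of arrays, and each sample left out. Within-array ratios and list counts by scaling were added after the values were seen. The members and the gene lists were chosen with earlier results of these data known. Named genes are all members, up to 4 called genes of smallest p per list and comparison (up to 2 where none was called), any type 2 cell gene, and the 3 genes most like each member; a gene was read by its brightest single-symbol probe set.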

Additional observations from a re-analysis of the deposited data

How the results depend on the processing

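Fits without a sample, or on arrays without the lot line, can leave a group of 1, which is then assumed to vary like the other groups, and they have fewer residual degrees of freedom, so a call lost there does not show a smaller change. Low signal does not limit these bright probe sets. Of the single values under the alternatives 570 kept their direction and side of the threshold, 67 lost the call, 11 gained one and 48 turned; the causes were not tested. The counts of called probe sets under alternatives were as follows. For ventilation at 100% oxygen (3) they were 1 with loess, 0 with no filter, 1 with the first array only, 0 with the lot line block, 0 on arrays without the lot line, and 0 to 3 with a sample left out. For oxygen in spontaneous breathing (1) they were 0 with quantile normalization, 2 with loess, 3 with bright end centring, 0 with no filter, with the first array only, with the lot line block and with only the groups compared, and 0 to 2 with a sample left out. For oxygen in mechanical ventilation (4) they were 2 with loess, 1 with the lot line block, 0 on arrays without the lot line and 1 to 4 with a sample left out. For both changes (5) they were 3 with loess, bright end centring and no filter, and 3 to 5 with a sample left out. For the interaction (0) they were 1 with bright end centring (M33201_at, 0.47) and 1 with the second array only (rc_AI170380_at, -1.08), and 0 to 1 with a sample left out.

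Values that turned are given in the order M33201_at, X13176cds_s_at, M81231_at unless named. Quantile normalization gave 0.42, 0.28 and 0.38 for ventilation at 100% oxygen, 0.32, 0.062 and 0.51 for oxygen in mechanical ventilation, and 0.32, 0.067 and 0.46 for both changes. It gave 0.00040 and 0.0044 for both Sftpa1 probe sets with ventilation at 21% oxygen, 0.082 for Sftpd with oxygen in spontaneous breathing, and interactions of 0.28 for X13176cds_s_at, 0.038 for rc_AI170380_g_at and 0.43 for Sftpd. Loess gave 0.25, 0.12 and 0.14 for ventilation at 100% oxygen, 0.12 (M33201_at) and 0.26 (Sftpd) for oxygen in mechanical ventilation, 0.14 (Sftpd) for both changes, 0.00041 (Sftpd) for oxygen in spontaneous breathing, and interactions of 0.35, 0.13 and 0.26 for X13176cds_s_at, rc_AI170380_g_at and Sftpd. Bright end centring gave 0.28, 0.18 and 0.26, then 0.13 (M33201_at) and 0.35 (Sftpd), 0.29 (Sftpd) and 0.033 (Sftpd) in the same comparisons, and interactions of 0.34, 0.19 and 0.32. The first array only gave an interaction of 0.023 for X13176cds_s_at. With a sample left out, Sftpd ran from -0.15 to 0.094 for oxygen in spontaneous breathing. Interactions ran from -0.12 to 0.24 for M33201_at, from -0.18 to 0.063 for X13176cds_s_at and from -0.21 to 0.035 for Sftpd. The lot line block gave interactions of 0.45 for X13176cds_s_at, 0.30 and 0.35 for Sftpb, 0.41 for Sftpc and 0.18 for Sftpd.

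The letter as a replicate block gave 0, 3, 0, 4, 5 and 0 calls for ventilation at 21% and at 100% oxygen, oxygen in spontaneous breathing and in mechanical ventilation, both changes and the interaction; X13176cds_s_at lost its call for oxygen in spontaneous breathing (adjusted p = 0.053). Deviations of a from b had correlations of -0.13 to 0.07 between groups, so no strong effect common to a letter was seen. What else the samples of a letter may share is not stated.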
